A study of Mus musculus with 8 samples.

Results

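The 10 genes described here carry iron into mouse alveolar macrophages, hold it, release it or sense it. They are Tfrc, Steap3, Slc11a2 and Slc11a1 (uptake and movement out of endosomes and phagosomes), Fth1, Ftl1 and Ncoa4 (storage and its release), Slc40a1 (export), and Aco1 and Ireb2 (the regulatory proteins). They were chosen by name, as the rows of the deposited count table whose symbol equals one of these names, and make up 10 of its 37310 genes. All 10 passed the filter on low counts.

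Alveolar macrophages, which live in the airspaces and clear surfactant and particles, were measured by bulk RNA sequencing in 4 states, with 2 libraries each. The texAM libraries held alveolar macrophages of wild type C57BL/6 mice that were expanded in culture, instilled into the airways of C57Bl/6-Ly5.1 mice and recovered 4 months later. How long these cells had been cultured before transfer is not given in the sources used here. The exAM libraries held wild type C57BL/6 cells after 2 months of culture, with no transfer and no sort. The tAM libraries held C57BL/6 cells that were transplanted without expansion and also recovered after 4 months. The HostAM libraries held the resident cells of the C57Bl/6-Ly5.1 strain, and whether those animals had received cells or PBS is not given. Donors and recipients were 8 weeks old, all were wild type, and no gene was deleted or added in any group. The 3 lung groups were sorted from whole lung as SiglecF+ CD11c+ cells carrying the donor (CD45.2+) or host (CD45.1+) form of CD45. Each library was a pool of 3 mice or cultures, so that p-values measure the spread between pools.

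Macrophages take iron from transferrin bound to the transferrin receptor and from the haem of red cells they ingest. Ferric iron is reduced in endosomes and moved to the cytosol, where it is used, stored in ferritin or exported through ferroportin. The regulatory proteins IRP1 and IRP2, encoded by Aco1 and Ireb2, bind hairpins in mRNA called iron-responsive elements when iron is low. Binding in a 5′ untranslated region blocks translation of ferritin and ferroportin, and binding in the 3′ untranslated region of Tfrc protects its mRNA from decay, so that part of this regulation does not show in RNA counts.

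The hairpins are shown because they are the sequences through which this switch acts on ferritin, ferroportin and transferrin receptor mRNA. The motif searched was C, 5 bases, CAGTGN with any last base but G, and 5 bases that pair with the first 5 (G with T allowed), on the transcript strand of every coding transcript of each gene in GENCODE M21 on GRCm38. It was found in 4 members, 4 times in the 3′ untranslated region of Tfrc and 1 time in the 5′ untranslated region of Fth1, Ftl1 and Slc40a1, and not in the coding transcripts of the other 6 members. Slc11a2, which is known for an element in some of its transcripts, held no match to these letters. Of 21866 protein-coding genes searched in the same way, 222 (1.02%) held it anywhere, 23 (0.105%) in the 5′ untranslated region and 100 (0.457%) in the 3′ untranslated region. The sequences are 30 bases long, 5′ to 3′ on the transcript strand, with capitals for the bulged C and the loop.
Tfrc element 1, chr16:32631219-32631248, plus strand: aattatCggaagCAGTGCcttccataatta
Tfrc element 2, chr16:32631598-32631627, plus strand: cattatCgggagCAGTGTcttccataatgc
Tfrc element 3, chr16:32631663-32631692, plus strand: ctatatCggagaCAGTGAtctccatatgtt
Tfrc element 4, chr16:32631710-32631739, plus strand: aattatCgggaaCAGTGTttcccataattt
Fth1, chr19:9982732-9982761, plus strand: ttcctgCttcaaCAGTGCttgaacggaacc
Ftl1, chr7:45459778-45459807, minus strand: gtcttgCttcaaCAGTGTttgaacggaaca
Slc40a1, chr1:45925464-45925493, minus strand: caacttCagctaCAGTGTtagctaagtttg
A match is a match of letters and pairing only, and binding was not measured.

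The libraries held 6546272 to 9154128 counts, and the exAM libraries were the smallest. After scaling with TMM factors, the mean effective library size of texAM was 1.49 times that of exAM, and that of exAM was 0.742 times that of tAM. Levels are given as CPM, counts scaled to equal effective library size. All 10 alveolar macrophage markers were detected in every group, with a summed level of 2225 to 2495 CPM in texAM, 2274 to 2677 CPM in exAM, 2542 to 2735 CPM in tAM and 2456 to 2515 CPM in HostAM. These sums hide changes in both directions. At an adjusted p under 0.05 (edgeR), 4 markers were higher and 5 lower in texAM than in exAM. In exAM over tAM 3 were higher and 4 lower. Fabp1, Krt79 and Cidec were under 9 CPM in exAM and at least 83.6, 150 and 196 CPM in the lung libraries. Marco ran the other way, at 520 and 471 CPM in exAM and at most 245 CPM in the lung libraries. Markers of other cells moved with culture. The 6 red cell markers summed to 82 to 95 CPM in texAM, were all at 0 in exAM, and summed to 71 to 76.8 CPM in tAM and 115 to 137 CPM in HostAM. The 7 lung epithelial markers summed to 241 to 407 CPM in texAM, 2.78 to 7.03 CPM in exAM (with 5 of the 7 at 0), 259 to 350 CPM in tAM and 475 to 545 CPM in HostAM. The 7 lymphocyte markers summed to 108 to 142 CPM in texAM, 1.37 to 4.32 CPM in exAM (5 at 0), 39.7 to 78.6 CPM in tAM and 19.3 to 48.0 CPM in HostAM. The 9 markers of monocytes and other macrophages summed to 86.6 to 110 CPM in texAM, 22.5 to 24.1 CPM in exAM (C1qa and Vcam1 at 0), 56.8 to 71.3 CPM in tAM and 49.7 to 91.2 CPM in HostAM. Lyve1 ran against this sum, with 15.8 and 18.4 CPM in exAM and at most 0.799 CPM in the lung libraries. The 6 dendritic cell markers summed to 94.2 to 149 CPM in texAM, 53.3 to 74.3 CPM in exAM (3 at 0), 109 to 112 CPM in tAM and 98.1 to 181 CPM in HostAM. Most of the exAM sum was Clec9a, at 64.5 and 48.6 CPM in exAM and at most 34.9 CPM in the lung libraries. The 7 neutrophil markers summed to 48.0 to 106 CPM in texAM, 44.8 to 64.7 CPM in exAM, 23.9 to 26.8 CPM in tAM and 19.3 to 26.1 CPM in HostAM, with Ly6g and Mpo at 0 in every library. Nearly all of the exAM sum was S100a8, at 63.6 and 44.8 CPM. S100a9 had 0.343 and 0 CPM in exAM, 64.6 and 25.8 CPM in texAM, 8.36 and 7.02 CPM in tAM and 5.29 and 14.2 CPM in HostAM. The 7 endothelial and stromal markers ran the other way, summing to 6.37 to 7.99 CPM in texAM, 51.3 to 62.2 CPM in exAM, 1.28 to 3.51 CPM in tAM and 1.10 to 2.07 CPM in HostAM, with Col1a1, Col1a2 and Pdgfrb at 0 in exAM. Cdh5 and Pdgfra made up most of the exAM sum. Pecam1 had 1.2 and 0.309 CPM in exAM, 5.85 and 7.53 CPM in texAM, 1.16 and 3.39 CPM in tAM and 0.992 and 0.576 CPM in HostAM. The part of these cells in the results below was not tested, and in bulk libraries fewer cells of a type and less RNA per cell cannot be told apart.

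Of the 10 genes, 8 were lower in texAM than in exAM and none was higher, and 8 were higher in exAM than in tAM and none was lower. The same 8 names appear in both comparisons, which share the exAM libraries. The count for exAM over tAM was 4 when libraries were scaled by their totals alone, and also 4 without the first exAM library or without either tAM library. Of the 8, Fth1, Ftl1 and Ncoa4 had raw counts that hardly varied between libraries, as described below. A gene was called at an adjusted p under 0.05 over the 14537 tested genes. Among all tested genes, 20.5% were called lower and 23.2% higher in texAM than in exAM, and 21.5% were called higher and 23.2% lower in exAM than in tAM. With totals alone as the scale, 2250 of 14537 genes were called higher in exAM than in tAM, against 3124 with TMM. Fewer of all genes were also called higher without the first exAM library or either tAM library. Against HostAM, 7 of the 10 were higher in exAM (20.9% of all tested genes) and none was lower (23.3% of all tested genes). The median log2 fold change of the 10 genes was -0.79 for texAM over exAM, where all tested genes had 0.11, and 0.68 for exAM over tAM, where all tested genes had -0.09. For exAM over HostAM the medians were 0.84 for the 10 genes and -0.08 for all tested genes. The 10 genes were chosen with earlier results of these data known. Changes of the called genes differed widely in size, from 6.43-fold for Slc11a1 to 1.34-fold for Ftl1 in texAM over exAM. The storage genes Fth1, Ftl1 and Ncoa4 had the smallest of these, next to 1.98-fold for Slc11a2.

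**Figure D1:**
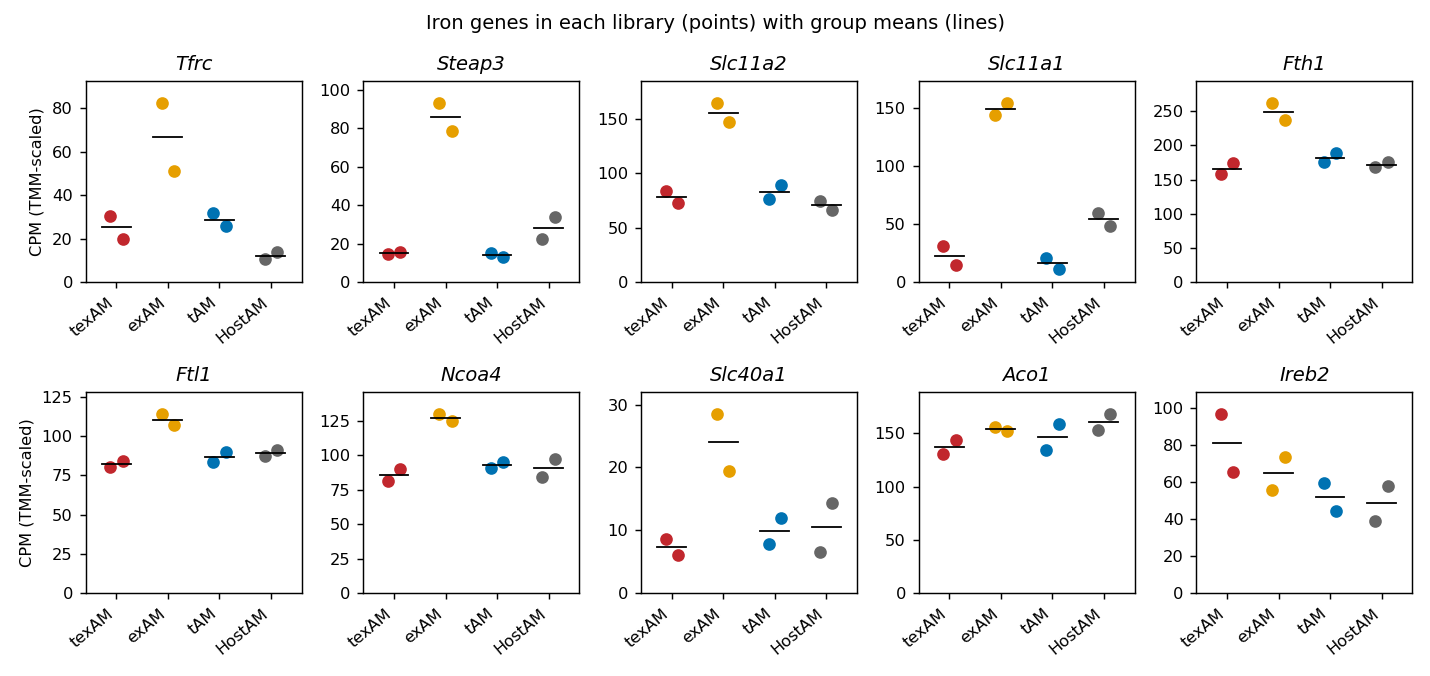
Level of each of the 10 iron genes (CPM, scaled by TMM) in each library, with texAM, exAM, tAM and HostAM from left to right; points are single libraries and lines are group means of 2. The exAM points lie above all others for every gene except Aco1 and Ireb2, and Slc11a1 and Steap3 show the widest gaps.

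Tfrc encodes transferrin receptor 1, which brings iron-loaded transferrin into the cell (chromosome 16, 32608920 to 32632794, plus strand). Its level was 30.5 and 20 CPM in texAM, 82.1 and 51.3 CPM in exAM, 31.6 and 26.0 CPM in tAM, and 10.6 and 14.0 CPM in HostAM. Both exAM libraries were above all others, texAM and tAM overlapped, and both HostAM libraries were below all others. Tfrc was 2.64-fold lower in texAM than in exAM (log2 fold change -1.40, SE 0.30, adjusted p = 0.00357) and 2.32-fold higher in exAM than in tAM (1.21, SE 0.30, adjusted p = 0.0075). Without the first exAM library the difference from tAM was 0.85 with an adjusted p of 0.0863, and without the second tAM library it was 1.08 with an adjusted p of 0.0567. The largest difference was between exAM and HostAM, at 5.41-fold higher in exAM (2.44, SE 0.31, adjusted p = 0.000164).

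Steap3 encodes the ferrireductase that turns ferric into ferrous iron in endosomes, the step after transferrin uptake (chromosome 1, 120190757 to 120272705, minus strand). Its level was 14.5 and 16.0 CPM in texAM, 93.0 and 78.6 CPM in exAM, 15.1 and 13.4 CPM in tAM, and 22.6 and 34.1 CPM in HostAM. The exAM libraries stood apart from all 6 lung libraries, and texAM and tAM overlapped below HostAM. Steap3 was 5.62-fold lower in texAM than in exAM (-2.49, SE 0.25, adjusted p = 2.97e-05) and 6.01-fold higher in exAM than in tAM (2.59, SE 0.25, adjusted p = 2.25e-05). It was also 3.03-fold higher in exAM than in HostAM (1.60, SE 0.24, adjusted p = 0.0004).

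The Slc11 genes encode proton-coupled carriers of divalent metals. Slc11a2 (DMT1, chromosome 15, 100387898 to 100425072, minus strand) is known to move iron out of endosomes, and Slc11a1 (NRAMP1, chromosome 1, 74375195 to 74386062, plus strand) out of phagosomes. Whether either carrier was active in these cells was not measured. Slc11a2 had 84.0 and 73.1 CPM in texAM, 164 and 147 CPM in exAM, 76.3 and 89.5 CPM in tAM, and 74.7 and 66.3 CPM in HostAM. Its lung groups lay close together and exAM was above them. It was 1.98-fold lower in texAM than in exAM (-0.98, SE 0.15, adjusted p = 0.000427), 1.87-fold higher in exAM than in tAM (0.91, SE 0.15, adjusted p = 0.000681) and 2.20-fold higher in exAM than in HostAM (1.14, SE 0.15, adjusted p = 0.000171). Slc11a1 had 31.2 and 14.9 CPM in texAM, 144 and 154 CPM in exAM, 21.1 and 11.9 CPM in tAM, and 59.9 and 48.6 CPM in HostAM. The exAM libraries agreed closely with each other and were highest, HostAM came next without overlap, and texAM and tAM overlapped at the bottom. It was 6.43-fold lower in texAM than in exAM (-2.69, SE 0.33, adjusted p = 0.000133) and 8.99-fold higher in exAM than in tAM (3.17, SE 0.34, adjusted p = 5.28e-05). The log2 fold change for texAM over exAM was -3.32 without the first texAM library and -2.26 without the second, and that for exAM over tAM was 3.64 without the first tAM library and 2.82 without the second. Against HostAM it was 2.75-fold higher in exAM (1.46, SE 0.31, adjusted p = 0.00392).

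The balance of the carrier transcripts differed between groups. For each count of Slc11a2 there were 0.371 and 0.204 counts of Slc11a1 in texAM, 0.879 and 1.05 in exAM, 0.277 and 0.133 in tAM, and 0.801 and 0.733 in HostAM. Within a library this ratio needs no scaling by library size, and it was lower in all 4 libraries of transplanted cells than in the 4 others. The ratio is given as a description, with no test.

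Ferritin, the iron store of the cell, is a cage of heavy and light chains. Fth1 encodes the heavy chain, which oxidises iron for storage (chromosome 19, 9980598 to 9985098, plus strand). Fth1 had 158 and 174 CPM in texAM, 261 and 237 CPM in exAM, 175 and 189 CPM in tAM, and 168 and 175 CPM in HostAM. The exAM libraries were above all 6 lung libraries, which lay within a narrow band. Fth1 was 1.5-fold lower in texAM than in exAM (-0.59, SE 0.10, adjusted p = 0.0012), 1.37-fold higher in exAM than in tAM (0.45, SE 0.10, adjusted p = 0.00532) and 1.45-fold higher in exAM than in HostAM (0.54, SE 0.10, adjusted p = 0.002). The call against tAM was lost without the first tAM library (0.40, adjusted p = 0.0506) and when libraries were scaled by their totals alone (0.25, adjusted p = 0.0632).

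Ftl1 encodes the light chain, which helps iron to mineralise inside the cage (chromosome 7, 45457944 to 45459884, minus strand). Ftl1 had 80.5 and 84.4 CPM in texAM, 114 and 107 CPM in exAM, 83.2 and 89.9 CPM in tAM, and 87.2 and 91.4 CPM in HostAM. It was again highest in both exAM libraries, by a smaller margin. It was 1.34-fold lower in texAM than in exAM (-0.42, SE 0.13, adjusted p = 0.0222) and 1.27-fold higher in exAM than in tAM (0.35, SE 0.13, adjusted p = 0.0464). Neither call was stable, and both were lost when libraries were scaled by their totals alone (-0.20, adjusted p = 0.213, and 0.15, adjusted p = 0.361). Leaving out either texAM library or the first exAM library gave adjusted p-values of 0.0772 to 0.123 for texAM over exAM, and the call against tAM was lost in 11 of the 17 alternatives. Against HostAM Ftl1 missed the threshold (0.30, SE 0.13, adjusted p = 0.0756).

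Ncoa4 encodes the receptor that carries ferritin to autophagosomes, where its iron is set free (chromosome 14, 32159865 to 32179855, plus strand). Ncoa4 had 81.1 and 89.9 CPM in texAM, 130 and 125 CPM in exAM, 91.1 and 95 CPM in tAM, and 84.3 and 97.2 CPM in HostAM. The lung groups lay close together under both exAM libraries. It was 1.49-fold lower in texAM than in exAM (-0.57, SE 0.13, adjusted p = 0.00543), 1.37-fold higher in exAM than in tAM (0.45, SE 0.13, adjusted p = 0.0179) and 1.40-fold higher in exAM than in HostAM (0.49, SE 0.13, adjusted p = 0.0124). Without the first texAM library the adjusted p for texAM over exAM was 0.0546, and the adjusted p for exAM over tAM was 0.0635 to 0.0957 without the first exAM library or either tAM library. With totals alone as the scale it was 0.25 with an adjusted p of 0.141 against tAM and 0.31 with an adjusted p of 0.0788 against HostAM, and the call against HostAM was also lost without the first exAM library (0.47, adjusted p = 0.0566) or the first HostAM library (0.39, adjusted p = 0.0751).

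The raw counts of the storage genes hardly varied between libraries. Fth1 had 1516 and 1521 counts in texAM, 1524 and 1537 in exAM, 1512 and 1508 in tAM, and 1521 and 1523 in HostAM, so that the highest library had 1.02 times the count of the lowest while effective library sizes spanned 1.64 times. The SD of the 8 counts was 8.78, against 39.0 for counting error alone (the square root of the mean count). Ncoa4 had 756 to 844 counts and Ftl1 664 to 794 counts over the 8 libraries, spans of 1.12 and 1.2 times. The mean Ftl1 count was 755.5 in texAM, 677 in exAM, 717 in tAM and 792.5 in HostAM, lowest in the group where its CPM was highest. The CPM differences of Fth1 and Ncoa4 therefore follow the library sizes, and the counts themselves did not differ by group in the same way. Counts of the other members did vary, from 1.60 times for Aco1 and 1.66 times for Slc11a2 to 4.99 times for Tfrc, 5.07 times for Steap3 and 10.5 times for Slc11a1.

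**Figure D2:**
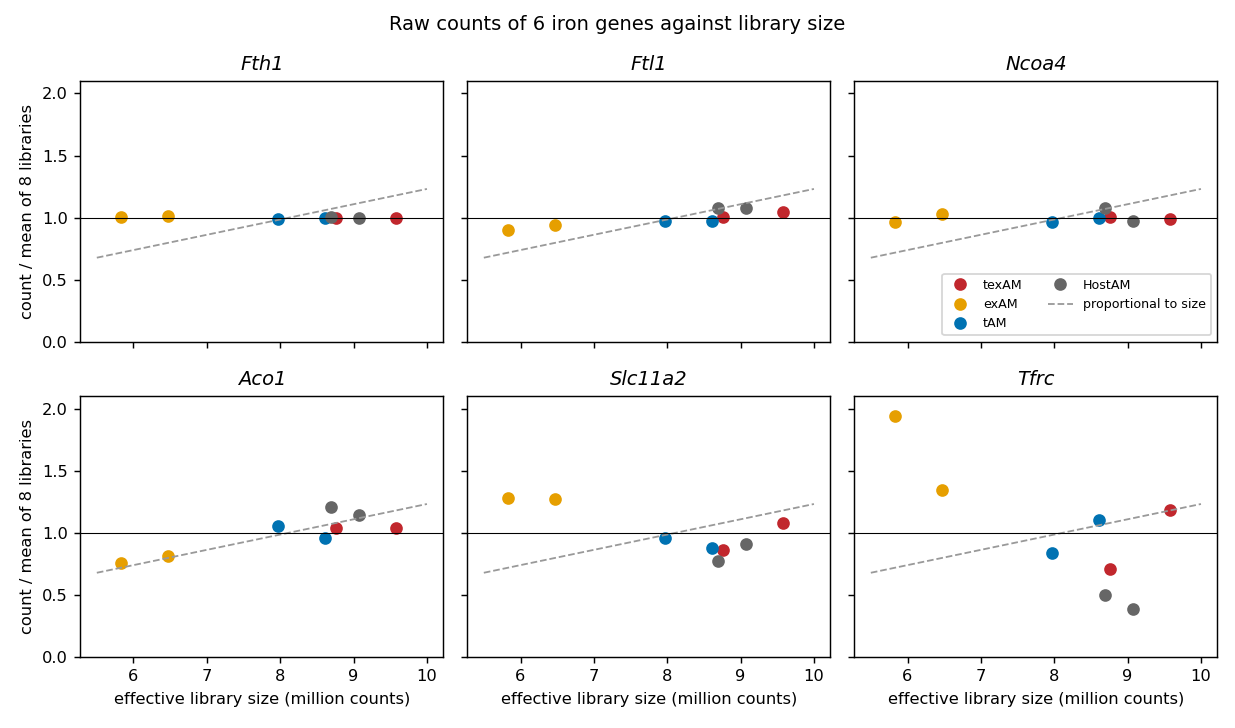
Raw count of 6 iron genes in each library, divided by the gene's mean over the 8 libraries, against the effective library size; the dashed line is a count proportional to library size and the solid line is the mean. Fth1 and Ncoa4 stay near 1 in every library, Aco1 lies along the dashed line in exAM, and the exAM points of Slc11a2 and Tfrc lie above it.

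Across all genes the spread was narrower the more densely a gene was counted. Fth1 had 1.01 to 1.03 counts per base of its longest coding transcript (1494 bases), and 1.62 to 1.65 per base of a shorter one. Ftl1 had 0.686 to 0.820 and Ncoa4 0.186 to 0.208 counts per base. Among the 7880 tested genes with at most 0.1 counts per base, the highest library had a median of 4.03 times the count of the lowest, and this fell to 1.27 times among the 226 genes with over 1 count per base. Among the 6 lung libraries the medians of the same classes were 2.27 and 1.10 times. All these medians leave out the genes of a class that had 0 counts in any of the 8 libraries. Counting error alone also widens such ratios at lower counts. Ncoa4 varied less than the median of its class, 2.12 times. In the class over 1 count per base, 10.6% of genes varied by less than counting error, against 1.88% in the lowest class. Whether repeated reads had been removed is not given in the sources used here, and its part in these counts was not tested. Few reads were counted for near-identical ferritin copies. Fth-ps2 had 19 to 78 counts, Ftl1-ps1 8 to 14 and Ftl2-ps 5 to 14, and adding them to their parent genes ended no call of Fth1 or Ftl1. The copies Ftl1-ps2 and Fth-ps3 were not among the counted genes. How reads that match a gene and its copy equally well were counted is not given in the sources used here. Adding the copies therefore cannot show whether such reads were lost.

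Slc40a1 encodes ferroportin, the iron exporter (chromosome 1, 45908068 to 45926523, minus strand), and had the lowest level per transcript length of the 10 genes in texAM, at 2.18 ± 0.55 CPM per kilobase (SD, n = 2), and in exAM, at 7.11 ± 1.89 CPM per kilobase. It had 8.67 and 6.05 CPM in texAM, 28.5 and 19.5 CPM in exAM, 7.89 and 11.9 CPM in tAM, and 6.61 and 14.3 CPM in HostAM. The exAM libraries were highest, and the 3 lung groups overlapped each other. It was 3.25-fold lower in texAM than in exAM (-1.70, SE 0.44, adjusted p = 0.0107), 2.42-fold higher in exAM than in tAM (1.27, SE 0.43, adjusted p = 0.0358) and 2.29-fold higher in exAM than in HostAM (1.20, SE 0.43, adjusted p = 0.045). These calls were unstable too. Leaving out any 1 exAM or tAM library ended the call against tAM, with log2 fold changes of 0.99 to 1.60 and adjusted p-values of 0.0513 to 0.207. The call for texAM over exAM was lost without the second texAM library (-1.47, adjusted p = 0.0779) or the first exAM library (-1.43, adjusted p = 0.079), and that against HostAM in 9 of the 17 alternatives, with 0.75 (adjusted p = 0.213) without the first HostAM library and 1.86 (adjusted p = 0.0117) without the second.

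Tfrc and Slc40a1, the entry and the exit of the pathway, thus were both highest in exAM. For each Slc40a1 count there were 3.52 and 3.3 Tfrc counts in texAM, 2.89 and 2.63 in exAM, 4 and 2.18 in tAM, and 1.60 and 0.984 in HostAM. The ratio overlapped between exAM and tAM and was lowest in both HostAM libraries. It is given as a description.

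Aco1 encodes IRP1, which is the cytosolic aconitase when it holds an iron-sulphur cluster (chromosome 4, 40143081 to 40198338, plus strand). It had 131 and 144 CPM in texAM, 156 and 152 CPM in exAM, 134 and 159 CPM in tAM, and 153 and 168 CPM in HostAM. The groups lay close together, and Aco1 was called in none of the 6 comparisons under any of the 17 alternatives. The log2 fold change was -0.17 for texAM over exAM (95% interval -0.44 to 0.10, adjusted p = 0.283), 0.07 for exAM over tAM (-0.20 to 0.34, adjusted p = 0.653) and -0.06 for exAM over HostAM (-0.33 to 0.21, adjusted p = 0.727).

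Ireb2 encodes IRP2, which is degraded when iron is plentiful and so is set mainly at the protein (chromosome 9, 54863789 to 54912530, plus strand). It had 96.5 and 65.4 CPM in texAM, 55.6 and 73.5 CPM in exAM, 59.5 and 44.1 CPM in tAM, and 38.8 and 57.9 CPM in HostAM. It was the only member whose highest mean was in texAM and not in exAM or HostAM, but its libraries overlapped between texAM and exAM and between exAM and each of the other lung groups. The log2 fold change was 0.33 for texAM over exAM (95% interval -0.25 to 0.90, adjusted p = 0.329) and 0.32 for exAM over tAM (-0.27 to 0.90, adjusted p = 0.349), intervals that reach nearly 1 on the log2 scale.

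Per transcript length, Fth1 and Ftl1 had the highest levels of the 10 genes in all 4 groups. Fth1 averaged 111 ± 7.20 CPM per kilobase in texAM, 167 ± 11.4 in exAM, 122 ± 6.43 in tAM and 115 ± 3.63 in HostAM (SD, n = 2). Slc11a1 averaged 9.97 ± 4.97 CPM per kilobase in texAM, 64.4 ± 2.92 in exAM, 7.14 ± 2.81 in tAM and 23.4 ± 3.44 in HostAM. Slc11a1 thus stood above Aco1 per length in exAM, where Aco1 had 40.3 ± 0.741 CPM per kilobase, and below it in texAM, where Aco1 had 35.9 ± 2.36 CPM per kilobase. The narrow counts of the ferritin genes limit these comparisons of levels too.

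**Figure D3:**
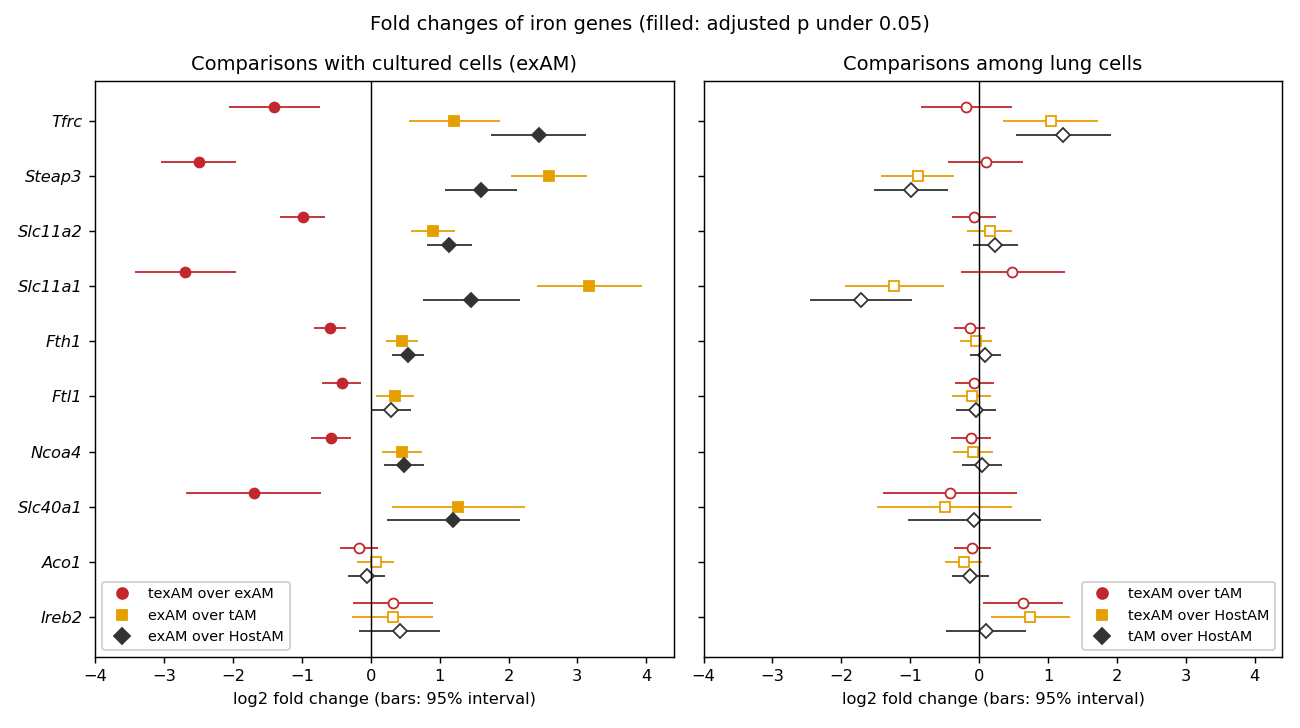
Log2 fold changes of the 10 iron genes with 95% intervals, for the 3 comparisons that include exAM (left) and the 3 comparisons among lung cells (right); filled symbols have an adjusted p under 0.05. On the left, Steap3 and Slc11a1 reach -2.49 and -2.69 for texAM over exAM; on the right no symbol is filled, and Tfrc, Steap3 and Slc11a1 lie away from 0 in the comparisons with HostAM.

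Among cells taken from the lung, edgeR called no member. For texAM over tAM, which asks whether expansion in culture left a mark after 4 months in the airways, none of the 10 passed edgeR's quasi-likelihood test (0.00688% of all tested genes, a single gene, were called), 1 had an unadjusted p under 0.05, and DESeq2 called none (0.502% of all tested genes). The log2 fold changes ran from -0.42 for Slc40a1 to 0.64 for Ireb2, with a median of -0.09, where all tested genes had 0.00. The single unadjusted p was that of Ireb2, which was 1.56-fold higher in texAM than in tAM with no overlap of libraries (log2 fold change 0.64, 95% interval 0.06 to 1.22, adjusted p = 0.61). Over all genes 1139 of 14537 had an unadjusted p under 0.05. The genes with the largest changes between exAM and the transplanted cells were Steap3, Slc11a1, Slc40a1 and Tfrc. Their intervals for texAM over tAM were -0.45 to 0.64, -0.27 to 1.24, -1.40 to 0.55 and -0.84 to 0.47, in that order. These leave room for differences of about 1 or more on the log2 scale in Slc11a1 and Slc40a1. For Fth1 and Ncoa4, whose texAM libraries lay under both tAM libraries, the log2 fold changes were -0.14 (adjusted p = 0.79) and -0.12 (adjusted p = 0.856).

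Against HostAM, the intervals of Tfrc, Steap3 and Slc11a1 left out 0 in texAM and in tAM, and that of Ireb2 in texAM, in comparisons that share the HostAM libraries. For texAM over HostAM no member was called by edgeR (0.330% of all tested genes were), 4 had an unadjusted p under 0.05, and DESeq2 called 1 (2.65% of all tested genes). For tAM over HostAM no member was called by edgeR (0.0413% of all tested genes were), 3 had an unadjusted p under 0.05, and DESeq2 called 3 (1.31% of all tested genes). Over all genes, 1914 and 1457 of 14537 had an unadjusted p under 0.05 in texAM over HostAM and tAM over HostAM.

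Slc11a1 was lower in transplanted cells than in HostAM, with no overlap of libraries, by 2.34-fold in texAM (log2 fold change -1.23, SE 0.32, adjusted p = 0.144) and by 3.27-fold in tAM (-1.71, SE 0.33, adjusted p = 0.107). With DESeq2 the adjusted p-values were 0.00406 for texAM and 1.83e-05 for tAM, and edgeR without a filter on low counts called it in both (adjusted p = 1.59e-06 and 8.56e-12). Steap3 was 1.86-fold lower in texAM than in HostAM (-0.89, SE 0.24, adjusted p = 0.152) and 1.98-fold lower in tAM (-0.99, SE 0.24, adjusted p = 0.202). DESeq2 gave Steap3 adjusted p-values of 0.0508 for texAM and 0.0433 for tAM. Tfrc ran the other way, 2.05-fold higher in texAM than in HostAM (1.04, SE 0.31, adjusted p = 0.192) and 2.34-fold higher in tAM (1.22, SE 0.31, adjusted p = 0.204), with DESeq2 adjusted p-values of 0.0599 for texAM and 0.0221 for tAM. Ireb2 was 1.68-fold higher in texAM than in HostAM (0.74, SE 0.26, adjusted p = 0.26, and DESeq2 adjusted p = 0.12). EdgeR without a filter on low counts called it and the other 3 for texAM over HostAM (Ireb2 adjusted p = 0.013). Without that filter edgeR called 694 of 22497 genes for texAM over HostAM and 425 for tAM over HostAM.

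Donor and host cells differed in strain as well as in transfer. Slc11a1 and Steap3 lie on chromosome 1, which also carries Ptprc, the gene of the CD45 forms used for sorting, at distances of 63.7 and 17.8 megabases from it. Slc40a1 lies on the same chromosome, 92.1 megabases from Ptprc, and Tfrc on another. Strain and transfer cannot be told apart for these differences. The red cell markers, summing to 115 to 137 CPM in HostAM, and the epithelial markers, at 475 to 545 CPM, were also higher there than in texAM and tAM, and their part was not tested.

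The 10 genes were set beside 94 other genes of iron handling in 7 lists, of which 79 were tested. Their calls went both ways, at shares near those of all tested genes. For texAM over exAM 16 of the 79 (20.3%) were called higher and 18 (22.8%) lower, with a median log2 fold change of -0.08. For exAM over tAM 22 (27.8%) were called higher and 19 (24.1%) lower, with a median of 0.10. For exAM over HostAM 20 (25.3%) were called higher and 15 (19.0%) lower, with a median of 0.03. Among lung cells edgeR called none of the 79 and DESeq2 called none for texAM over tAM, 3 for texAM over HostAM (Alas2, Hif1a and Hmox1) and 3 for tAM over HostAM (Alas2, Hmox1 and Spic), while 8, 12 and 10 had an unadjusted p under 0.05. Genes with 0 counts in 1 group were also placed at the bound that 3 counts over that group allow, which left each median as it was. The lists were written with earlier results of these data known.

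Of 10 tested genes for uptake of transferrin, haem and siderophores, 3 were higher and 1 lower in texAM than in exAM (median -0.11), and 1 was higher and 4 lower in exAM than in tAM (median -0.33). Slc48a1, which carries haem out of the phagolysosome, averaged 195 ± 8.36 CPM in texAM, 308 ± 97.8 in exAM and 213 ± 1.75 in tAM, and was 1.45-fold higher in exAM than in tAM (adjusted p = 0.0266). It averaged 245 ± 9.29 CPM in HostAM, overlapped there with exAM and was not called for exAM over HostAM (adjusted p = 0.133). Trf, transferrin itself, averaged 58.8 ± 5.14 CPM in texAM, 74.8 ± 15.0 in exAM and 66.1 ± 6.68 in tAM and was called in neither comparison (adjusted p = 0.136 and 0.436). Ltf, Hp and Lcn2, which bind iron, haemoglobin and siderophores and are neutrophil or epithelial products as well, were near 0 in exAM. Ltf had 396 and 99 counts in texAM, 1 and 0 in exAM, and 156 and 28 in tAM. The ratio of scaled counts was 332 (95% interval 59.3 to 13144) for texAM over exAM, or 139 (24.4 to 5545) without the first texAM library. For tAM over exAM it was 136 (24.2 to 5420), or 43.2 (7.14 to 1767) without the first tAM library. Hp averaged 11.8 ± 7.59 CPM in texAM, 0.497 ± 0.267 in exAM and 2.17 ± 0.119 in tAM. Lcn2 averaged 8.55 ± 5.48 CPM in texAM, 1.69 ± 0.449 in exAM and 4.31 ± 1.17 in tAM and was called higher in texAM than in exAM (adjusted p = 0.0237) but not for exAM over tAM (adjusted p = 0.152). In HostAM Ltf averaged 34.3 ± 4.79 CPM, Hp 10.1 ± 1.98 and Lcn2 3.01 ± 1.98, and Lcn2 overlapped between exAM and HostAM. Epithelial markers were also lowest in exAM, but their sums overlapped between texAM and tAM and were highest in HostAM. The neutrophil marker S100a9 was lowest in exAM too, with 64.6 and 25.8 CPM in texAM, 0.343 and 0 in exAM and 8.36 and 7.02 in tAM. The neutrophil marker S100a8 was not, and was highest in exAM (63.6 and 44.8 CPM). The part of epithelial cells and neutrophils was not tested. Slc22a17, a receptor for Lcn2, was 1.51-fold lower in exAM than in tAM, with 36.4 ± 6.84 CPM in exAM and 55.1 ± 0.915 in tAM (adjusted p = 0.0368).

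Of 8 tested ferrireductases and other metal transporters, 2 were higher and 1 lower in texAM than in exAM (median -0.01), and 1 was higher and 2 were lower in exAM than in tAM (median 0.14). Frrs1, a ferric reductase, averaged 154 ± 0.622 CPM in texAM, 255 ± 5.70 in exAM and 146 ± 1.41 in tAM, 1.74-fold higher in exAM than in tAM (adjusted p = 9.69e-05). Cyb561a3, a lysosomal ferric reductase, ran against it, with 376 ± 32.5 CPM in texAM, 214 ± 14.9 in exAM and 428 ± 24.6 in tAM, 2.00-fold lower in exAM than in tAM (adjusted p = 2.23e-05).

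Of 5 tested chaperones, ferroxidases and haem exporters, none was higher and 3 were lower in texAM than in exAM (median -0.69), and 3 were higher and 1 lower in exAM than in tAM (median 0.59). Abcg2, which exports porphyrins and many drugs, averaged 15.6 ± 3.21 CPM in texAM, 149 ± 14.0 in exAM and 11.8 ± 3.27 in tAM, 9.53-fold lower in texAM than in exAM (adjusted p = 5.99e-06) and 12.5-fold higher in exAM than in tAM (adjusted p = 3.2e-06). Flvcr1, known as a haem exporter, averaged 42.6 ± 7.28 CPM in texAM, 111 ± 17.5 in exAM and 30.4 ± 7.54 in tAM, 3.64-fold higher in exAM than in tAM (adjusted p = 8.91e-05). Pcbp1, which delivers iron to ferritin, was 1.33-fold lower in exAM than in tAM, with 114 ± 13.6 CPM in exAM and 151 ± 16.8 in tAM (adjusted p = 0.0337), and was not called for texAM over exAM (adjusted p = 0.203). Cp, the ferroxidase ceruloplasmin, had 6.54 ± 0.101 CPM in texAM, 3.84 ± 1.55 in exAM and 6.67 ± 5.35 in tAM and was called in neither (adjusted p = 0.36 and 0.342).

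All 16 genes of haem synthesis and breakdown were tested. In texAM over exAM 3 were higher and 4 lower (median -0.17), and in exAM over tAM 5 were higher and 4 lower (median 0.27). Hmox1, the enzyme that opens haem and frees its iron, averaged 227 ± 23.3 CPM in texAM, 425 ± 51.4 in exAM, 243 ± 3.18 in tAM and 326 ± 16.2 in HostAM. It was 1.87-fold lower in texAM than in exAM (-0.91, SE 0.11, adjusted p = 0.000112) and 1.75-fold higher in exAM than in tAM (0.80, SE 0.11, adjusted p = 0.000224). Against HostAM it was 1.30-fold higher in exAM (0.38, SE 0.11, adjusted p = 0.0164). The first and last enzymes of haem synthesis moved with it. Alas1 averaged 259 ± 7.01 CPM in texAM, 526 ± 122 in exAM and 263 ± 25.3 in tAM (2.00-fold higher in exAM than in tAM, adjusted p = 0.000271). Fech, which inserts the iron, averaged 78.0 ± 12.6 CPM in texAM, 187 ± 1.25 in exAM and 77.8 ± 17.7 in tAM (2.41-fold higher in exAM than in tAM, adjusted p = 0.000288). Ppox, the step before Fech, went against both, with 45.5 ± 16.0 CPM in texAM, 9.84 ± 4.21 in exAM and 49.8 ± 1.36 in tAM (5.03-fold lower in exAM than in tAM, adjusted p = 0.000312). Alas2, the erythroid form of the first enzyme, had 25.5 and 9.47 CPM in texAM, 1.03 and 0.154 CPM in exAM, 11 and 10.2 CPM in tAM and 81.0 and 41.2 CPM in HostAM. Its level was highest where the red cell markers were highest, and all 6 of those markers were at 0 in exAM. The part of red cells in the Alas2 level was not tested.

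**Figure D4:**
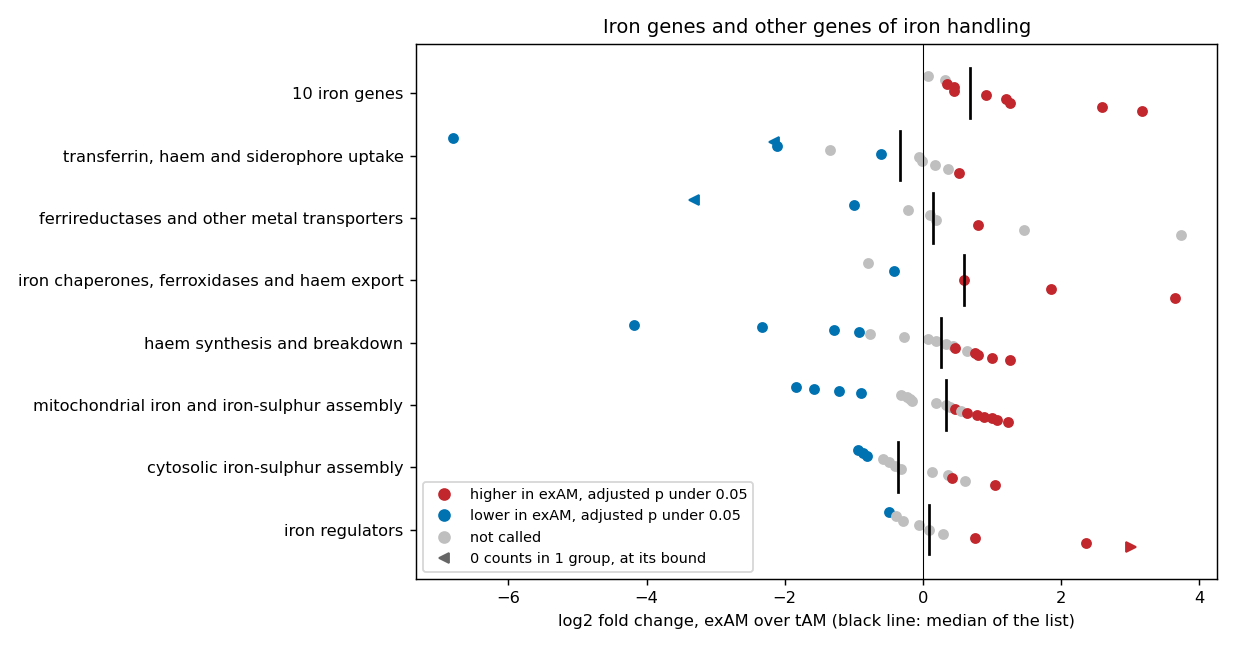
Log2 fold change of exAM over tAM for the 10 iron genes and for the tested genes of 7 lists of iron handling; each point is a gene, triangles are genes with 0 counts in 1 group drawn at the bound that 3 counts allow, and black lines are list medians. The 10 iron genes all lie above 0, at a median of 0.68, while every other list has called genes on both sides.

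All 19 mitochondrial genes of iron import and iron-sulphur cluster assembly were tested, of which 3 were higher and 6 lower in texAM than in exAM (median -0.08), and 7 higher and 4 lower in exAM than in tAM (median 0.34). Hspa9 and Hscb, the chaperone pair that hands on new clusters, were higher in exAM. Hspa9 averaged 192 ± 4.46 CPM in texAM, 347 ± 53.7 in exAM and 165 ± 6.27 in tAM (2.11-fold higher in exAM than in tAM, adjusted p = 4.84e-05). Hscb averaged 33.9 ± 7.06 CPM in texAM, 70.2 ± 9.27 in exAM and 35.0 ± 5.34 in tAM (2.00-fold, adjusted p = 0.00362). Abcb8, a mitochondrial transporter, was 2.08-fold lower in texAM than in exAM (adjusted p = 0.00267) and not called for exAM over tAM (adjusted p = 0.14). The mitochondrial iron importer Slc25a28 ran against them, with 47.0 ± 1.86 CPM in texAM, 14.5 ± 2.00 in exAM and 52.1 ± 6.94 in tAM (3.59-fold lower in exAM than in tAM, adjusted p = 9.63e-05). So did Lyrm4, a subunit of the desulfurase complex, with 72.1 ± 8.37 CPM in texAM, 28.1 ± 0.479 in exAM and 84.1 ± 2.40 in tAM (2.99-fold lower in exAM than in tAM, adjusted p = 4.81e-05).

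Of the 12 cytosolic assembly genes, 3 were higher and 2 lower in texAM than in exAM (median 0.25), and 2 were higher and 3 lower in exAM than in tAM (median -0.36). Cisd1, an outer membrane iron-sulphur protein, averaged 30.4 ± 5.22 CPM in texAM, 68.9 ± 12.1 in exAM and 33.5 ± 4.99 in tAM (2.06-fold higher in exAM than in tAM, adjusted p = 0.00343). Ciao2a, which matures IRP1 in human cells, averaged 149 ± 6.49 CPM in texAM, 205 ± 25.4 in exAM and 154 ± 3.12 in tAM (1.33-fold higher in exAM than in tAM, adjusted p = 0.013). Its raw counts were 1387 and 1350 in texAM, 1301 and 1212 in exAM and 1343 and 1208 in tAM. They did not rise in exAM, so this CPM difference follows the library sizes, like those of Fth1 and Ncoa4. Mms19 and Ciapin1, which act in cluster delivery and in electron supply, were lower in exAM than in tAM, by 1.91-fold (adjusted p = 0.0035) and 1.82-fold (adjusted p = 0.0265).

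Of 9 tested iron regulators, 2 were higher and 1 lower in texAM than in exAM (median -0.04), and 3 were higher and 1 lower in exAM than in tAM (median 0.09). Epas1, the hypoxia-inducible factor HIF-2α, whose targets in mouse gut include Slc11a2 and Slc40a1, averaged 164 ± 29.2 CPM in texAM, 766 ± 36.1 in exAM and 149 ± 16.9 in tAM. It was 4.68-fold lower in texAM than in exAM (adjusted p = 1.49e-06) and 5.15-fold higher in exAM than in tAM (adjusted p = 1.01e-06). Hif1a averaged 180 ± 14.5 CPM in texAM, 208 ± 17 in exAM and 124 ± 23.8 in tAM and was called for exAM over tAM (1.68-fold higher, adjusted p = 0.00549) but not for texAM over exAM (adjusted p = 0.331). Bach1, a haem-sensing repressor of Hmox1, averaged 160 ± 2.54 CPM in texAM, 124 ± 16.1 in exAM and 174 ± 3.47 in tAM, 1.29-fold higher in texAM than in exAM (adjusted p = 0.0421) and 1.40-fold lower in exAM than in tAM (adjusted p = 0.0124). Fbxl5, the iron-sensing subunit of the ligase that degrades IRP2, averaged 160 ± 17.3 CPM in texAM, 114 ± 4.75 in exAM and 139 ± 20 in tAM, called 1.40-fold higher in texAM than in exAM (adjusted p = 0.019) and not called for exAM over tAM (adjusted p = 0.125).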

How the data were processed

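RNA of 8 libraries was amplified by single-primer isothermal amplification before library construction, per the labels' protocols. The submitters' processing notes name Bowtie, HTSeq 0.6.1, R 3.3 and, as the build, mm10 (GRCm38). The deposited values are raw counts of reads per gene, whole numbers for 37310 Ensembl IDs, of which 22497 had a count and 32620 were found in GENCODE M21. The columns matched the titles of the 8 libraries, with the texAM group abbreviated.

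Counts were tested in R 4.3.3 using edgeR 4.0.16 (with limma 3.58.1), and DESeq2 1.42.0 served as an alternative. filterByExpr with a minimum of 10 counts left 14537 genes, and libraries were scaled by TMM. A robust quasi-likelihood model with 1 coefficient per group was fitted to all 8 libraries (4 residual degrees of freedom, biological coefficient of variation 0.22), and p-values were adjusted by Benjamini-Hochberg over all tested genes. CPM use effective library sizes, with means ± SD of 2 libraries. The SE of a log2 fold change was taken as its size divided by the square root of F. CPM per kilobase use the longest coding transcript. Intervals on count ratios cover counting error only.

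The 10 genes, the lists and the alternatives were chosen with earlier results of these data known. Besides the 10, the text names, for the comparisons among texAM, exAM and tAM, the called genes of each list with the 2 largest rises and the 2 largest falls whose libraries do not overlap and whose higher mean is at least 10 CPM, and Hmox1, Trf, Cp, Fbxl5, Bach1, Pcbp1 and Lcn2 in any case; some have values for 1 comparison only. The script was tested on simulated data with 200 changed genes. Replicates of a group differed beyond sampling noise, so none was counted as a duplicate. Libraries with the same replicate number were checked for pairing. Spic was named after its values were seen. 1 gene that the rule names is not reported here.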

Additional observations from a re-analysis of the deposited data

How the results depend on the processing

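Over 17 alternatives and the 6 comparisons, 961 of 1020 member results kept their side of the threshold, of which 18 changed sign without being called; 44 lost a call, 15 gained one and 0 called results reversed. Steap3, Slc11a2 and Slc11a1 kept their calls in all 3 comparisons with exAM under every alternative. The count of members called for exAM over tAM (8) was 4 with library size alone and 4 to 8 when 1 library was left out. For texAM over exAM (8) it was 6 to 8 and for exAM over HostAM (7) 5 to 7 when 1 library was left out. For texAM over HostAM (0) it was 4 with no filter on low counts and 1 with DESeq2. For tAM over HostAM (0) it was 3 with no filter, 1 with a minimum of 50 counts, 3 with DESeq2, and 0 to 1 when 1 library was left out, with Slc11a1 called without texAM replicate 1 (adjusted p = 0.0498) or 2 (adjusted p = 0.048). Among all genes, the fit with no filter called 694 of 22497 for texAM over HostAM and 425 for tAM over HostAM. The main fit called 48 and 6 of 14537, and DESeq2 called 385 and 190. A minimum of 50 counts called 44 of 11230 genes for tAM over HostAM. The cause of these shifts was not tested.

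Library size alone moved the median of all genes for exAM over tAM to -0.29, from -0.09 with TMM, and the share of calls that were higher to 34.5%, from 48.0%. Of 14537 genes, 2250 were called higher in exAM than in tAM with library size alone, and 3124 with TMM. For texAM over exAM the median was 0.33 with library size alone and 0.11 with TMM, and 68.1% and 53.1% of calls were higher. For exAM over HostAM the medians were -0.26 and -0.08, and 35.2% and 47.3% of calls were higher.

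Deviations of libraries with the same replicate number correlated at -0.07 to 0.01 between groups, so the numbers do not pair the samples. With the replicate number as a block, 8 members were called for texAM over exAM, 7 for exAM over tAM (Ftl1 missed, adjusted p = 0.0701), 6 for exAM over HostAM (Slc40a1 missed, adjusted p = 0.0558) and 0 in each comparison among lung cells.

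With 2 pools a group, intervals of genes with few counts were wide (Slc40a1 had an SE of 0.43 to 0.44), and the narrow counts of Fth1, Ftl1 and Ncoa4 tie their CPM to library size.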
